A study of Mus musculus with 3 samples.

Results

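Microglia that held transcripts of Ddit4 and Tsc22d3 without a high level of Fos were examined in single-cell RNA libraries of brain microglia. A microglial cell was counted as a member when its UMIs (unique molecular identifiers, 1 per captured transcript) of Ddit4 and Tsc22d3 summed to at least 3 and those of Fos and Fosb to under 3. These rules selected 529 of 13312 microglia, among 14070 kept cells and 14289 barcodes. Microglia were the kept cells in which P2ry12 and Tmem119 made up at least 0.15% of UMIs and in which Mrc1, Pf4, Ms4a7 and F13a1, genes of border-associated macrophages, summed to under 5 UMIs. Levels of Ddit4, Tsc22d3, Fos and Fosb therefore describe the choice and were not tested.

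Each genotype was represented by 1 library from brains of 8-week-old mice: hCD33m from females, hCD33M from males and Control from wild-type males. The hCD33m and hCD33M mice carried a transgene for the short or the long isoform of the human receptor CD33 in the Rosa26 locus. The transgene lay behind a floxed stop cassette, opened by Cre from the Cx3cr1 locus. The study reports that the long isoform represses uptake of cargo by microglia and that the short isoform enhances it. The methods describe the hCD33m strain as derived from 1 embryonic stem cell clone. All mice were perfused with the transcription blockers actinomycin D and triptolide, brains were stored cold with anisomycin, a translation blocker, added, and CD11b+ CD45+ Cx3cr1+ cells were taken by flow cytometry. The sources used here do not say whether brains were pooled in this experiment. Since a genotype is 1 library, genotypes were not tested against each other, and genotype, sex and library cannot be told apart.

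Ddit4 encodes an inhibitor of mTORC1, the kinase complex that couples growth to nutrients, and is induced by hypoxia, energy stress, DNA damage and glucocorticoids. Tsc22d3 encodes the glucocorticoid-induced leucine zipper, which restrains NF-kappaB and AP-1 and is a classic target of the glucocorticoid receptor in macrophages and lymphocytes. Fos and Fosb encode AP-1 subunits that rise early after cell stimulation, and in microglia also during tissue dissociation.

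The promoter windows of both genes are shown because both genes were higher in the same library, and they come from RefSeq on GRCm38.p6. The Ddit4 window is on the minus strand of chr10:59951721-59952020. Tsc22d3 has 3 start sites in that table, and the most upstream window lies at chrX:140600473-140600772 on the minus strand. Both are written from 250 bases before the start site to 50 bases after it. Capitals mark ACGTG, a form of the core of the hypoxia response element, or AGAACA, the half-site of the glucocorticoid receptor. Each was searched on both strands (CACGT and TGTTCT). The other form of the hypoxia core, GCGTG, was not searched and is not marked.
Ddit4: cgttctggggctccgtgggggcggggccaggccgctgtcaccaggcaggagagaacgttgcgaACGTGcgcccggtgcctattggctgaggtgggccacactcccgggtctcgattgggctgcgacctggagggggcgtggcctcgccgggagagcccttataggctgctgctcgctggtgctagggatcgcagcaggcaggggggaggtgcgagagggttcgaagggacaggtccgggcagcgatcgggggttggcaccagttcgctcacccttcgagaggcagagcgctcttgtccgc
Tsc22d3: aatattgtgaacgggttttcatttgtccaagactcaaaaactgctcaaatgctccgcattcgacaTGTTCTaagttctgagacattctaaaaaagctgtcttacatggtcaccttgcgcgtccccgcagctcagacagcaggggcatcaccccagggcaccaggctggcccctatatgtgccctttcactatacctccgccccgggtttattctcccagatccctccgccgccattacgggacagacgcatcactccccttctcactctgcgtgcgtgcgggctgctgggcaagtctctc
ACGTG was found once in the Ddit4 window, 187 bases before the start, and in none of the 3 Tsc22d3 windows. It occurs in 19.6% of all 32851 windows of this length. AGAACA was found once in the Tsc22d3 window shown, 185 bases before the start, in neither of the other Tsc22d3 windows and not in the Ddit4 window, and occurs in 19.0% of all windows. The AP-1 site TGANTCA was found in none of the 4 windows and occurs in 7.81% of all. The libraries read the 3' ends of transcripts, so they do not show which Tsc22d3 start site was used.

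Member cells were far more frequent in the hCD33m library. They made up 9.08% of microglia there (482 of 5307 cells, exact 95% binomial interval 8.32 to 9.89), against 0.501% in hCD33M (24 of 4791, 0.321 to 0.744) and 0.716% in Control (23 of 3214, 0.454 to 1.07). The hCD33M and Control intervals overlapped, and the hCD33m interval lay above both. All intervals cover counting error only.

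The rule counts UMIs, so deeper cells pass it more easily. In cells with 5000 to 7000 UMIs the share was 10.3% in hCD33m (202 of 1960), 0.484% in hCD33M (9 of 1860) and 0.491% in Control (7 of 1425). In cells with at least 10000 UMIs, 19.1% of hCD33m, 2.19% of hCD33M and 2.45% of Control cells were members. The hCD33m share was above the others in each of the 5 depth ranges. After every cell was thinned to 4000 UMIs, which left out 1261 hCD33m, 1094 hCD33M and 555 Control microglia, the shares in hCD33m, hCD33M and Control were 5.98%, 0.216% and 0.338%.

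**Figure D1:**
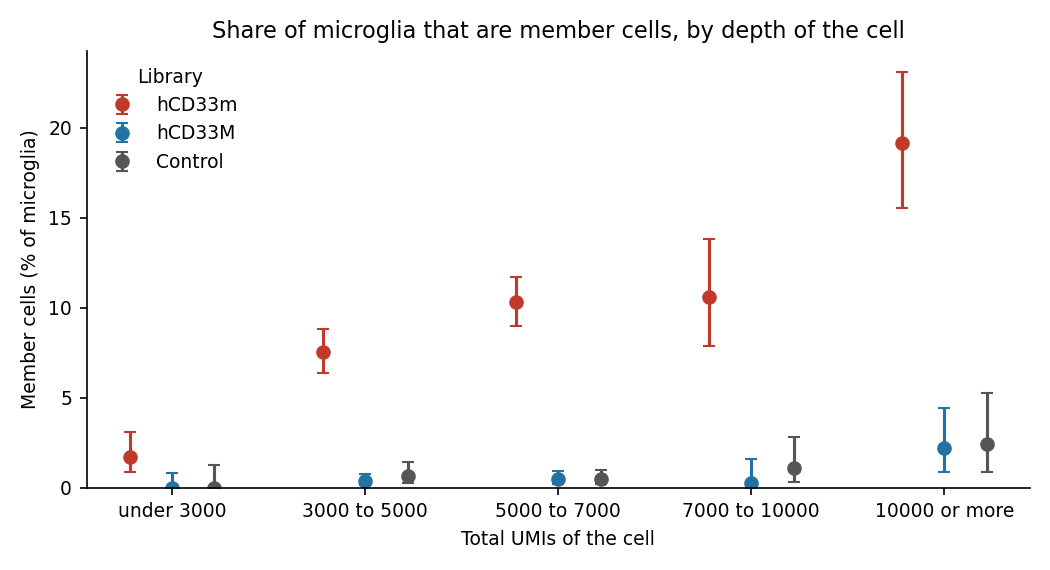
Share of microglia that were member cells (y axis, percent) in 5 ranges of total UMIs per cell (x axis) for the hCD33m, hCD33M and Control libraries; bars are exact 95% binomial intervals. The hCD33m points lie above the other libraries in every range, for example 10.3% against 0.484% and 0.491% at 5000 to 7000 UMIs.

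Both marker genes differed over the whole libraries and not in the members alone. Over all microglia, Ddit4 stood at 79.9 CPM (UMIs of a gene per 1000000 UMIs of the same cells, here from 2392 UMIs) in hCD33m, 8.77 CPM (234 UMIs) in hCD33M and 9.22 CPM (180 UMIs) in Control. Tsc22d3 stood at 125.8 CPM (3763 UMIs) in hCD33m, 33.4 CPM (891 UMIs) in hCD33M and 33.7 CPM (659 UMIs) in Control. Both genes were thus highest in hCD33m, while the intervals of hCD33M and Control overlapped for each. In sums over cells, more cells with a transcript and more transcripts per cell cannot be told apart, so shares of cells are given as well. At 4000 UMIs per cell a Ddit4 UMI was found in 23.6% of hCD33m, 3.46% of hCD33M and 3.20% of Control microglia, and a Tsc22d3 UMI in 33.6%, 11.5% and 11.9% of hCD33m, hCD33M and Control microglia.

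No cell class that lacks these genes was at hand to measure free RNA. In border-associated macrophages, the kept cells with at least 5 UMIs of the 4 genes named above, a Ddit4 UMI was found at 4000 UMIs in 15.2% of hCD33m (17 of 112), 4.44% of hCD33M and 2.82% of Control cells. A Tsc22d3 UMI was found in 63.4% of hCD33m (71 of 112), 21.1% of hCD33M and 16.9% of Control cells of that class. In hCD33m the Tsc22d3 share was higher in these macrophages than in microglia, with intervals that did not overlap (53.8 to 72.3 against 32.2 to 35.1). For Ddit4 the intervals overlapped (9.10 to 23.2 against 22.3 to 24.97).

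Most members only just passed the rule. In hCD33m, 257 members held exactly 3 UMIs of the 2 genes, 117 held 4 and 108 held 5 or more, with a highest sum of 11. In hCD33M 22 members held 3 and 2 held 4, and in Control 18 held 3 and 5 held 4. Just outside the rule, with 2 UMIs and low Fos, lay 538 hCD33m, 113 hCD33M and 84 Control cells. The Fos limit left out 314 hCD33m, 8 hCD33M and 10 Control cells with at least 3 UMIs of Ddit4 and Tsc22d3. Of the members, 88 hCD33m cells, 3 hCD33M cells and 3 Control cells lay just inside that limit, with 2 UMIs of Fos and Fosb.

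**Figure D2:**
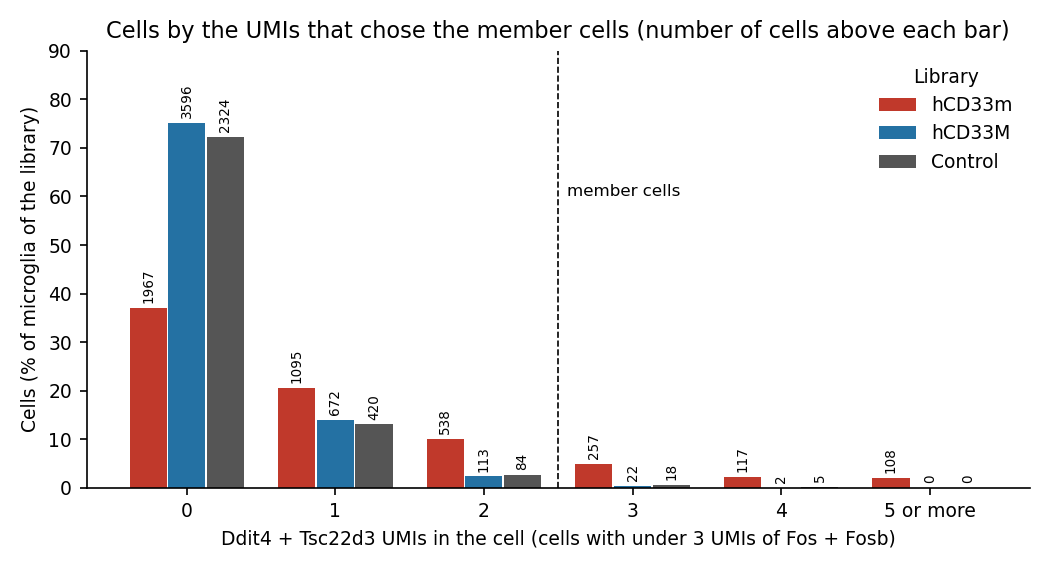
Cells with under 3 UMIs of Fos and Fosb (y axis, percent of the microglia of their library) by their sum of Ddit4 and Tsc22d3 UMIs (x axis), for hCD33m, hCD33M and Control; numbers above bars are cells, and the dashed line marks the limit of the rule. Of the hCD33m members 257 sit at 3 UMIs and 108 at 5 or more, while no hCD33M or Control cell reaches 5.

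The 2 genes contributed unequally. Among hCD33m members 71 held Ddit4 only, 132 Tsc22d3 only and 279 both genes. In hCD33M 19 of 24 members held Tsc22d3 only and 5 both, and in Control 12 of 23 held Tsc22d3 only and 11 both. Members without Tsc22d3 were thus seen in hCD33m and in neither other library. Member levels of Ddit4 were 236.8 CPM in hCD33m, 33.6 CPM in hCD33M and 75.7 CPM in Control, and those of Tsc22d3 were 327.8, 322.0 and 235.5 CPM in hCD33m, hCD33M and Control.

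Cells with a UMI of 1 gene were then compared with cells without it for the other gene. At 4000 UMIs, a Tsc22d3 UMI was found in 33.9% of hCD33m microglia with a Ddit4 UMI (30.9 to 37.0) and in 33.5% of those without (31.9 to 35.2). The shares were 8.59% (4.37 to 14.9) and 11.7% (10.6 to 12.8) in hCD33M, and 17.6% (10.2 to 27.4) and 11.7% (10.5 to 13.04) in Control. In each library the intervals with and without Ddit4 overlapped. When hCD33m cells with low Fos were chosen by at least 3 Ddit4 UMIs alone, Tsc22d3 was 134.3 CPM (124 UMIs in 130 cells), against 98.7 CPM (91 UMIs) in depth-matched cells without Ddit4, a log2 ratio of 0.44 (0.04 to 0.85). When they were chosen by at least 3 Tsc22d3 UMIs alone, Ddit4 was 85.9 CPM (115 UMIs in 201 cells), against 62.9 CPM (84 UMIs), a log2 ratio of 0.45 (0.03 to 0.87). Cells with high counts of either gene in hCD33m thus had a somewhat higher level of the other, with intervals that just left out 0. With at least 1 UMI in place of 3, a limit chosen after seeing the data, the log2 ratios in hCD33m were 0.22 (0.07 to 0.37) for Tsc22d3 and 0.07 (-0.09 to 0.23) for Ddit4. At that limit Control cells with Tsc22d3 had 14.3 CPM of Ddit4 (40 UMIs), against 7.19 CPM (20 UMIs) in matched cells, a log2 ratio of 0.996 (0.19 to 1.85), while in hCD33M it was -0.28 (-1.12 to 0.55). At the limit of 3 UMIs these libraries gave at most 2 UMIs on either side.

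The counts of the 2 genes were spread less widely than those of Fos. The ratio of variance to mean at 4000 UMIs, which is 1 for pure counting noise, was 1.42 in hCD33m, 1.03 in hCD33M and 1.10 in Control for Ddit4, and 1.4002, 1.16 and 1.12 for Tsc22d3 in hCD33m, hCD33M and Control. For Fos it was 3.39, 1.82 and 2.21 in the same libraries. Fos-high cells (at least 3 UMIs of Fos and Fosb) made up 39.4% of hCD33m microglia with at least 3 UMIs of Ddit4 and Tsc22d3 (314 of 796) and 15.2% of those with 0 (353 of 2320). At 4000 UMIs these shares were 23.7% (75 of 317, 19.1 to 28.7) and 15.2% (313 of 2054, 13.7 to 16.9). The difference was smaller at equal depth, and the intervals did not overlap. In hCD33M 1 of 9 and in Control 0 of 9 such cells were Fos-high at 4000 UMIs, too few for a comparison.

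The members carried the microglial markers. The rule itself asks for P2ry12 and Tmem119 and limits Mrc1, Pf4, Ms4a7 and F13a1, in members and matched cells alike, so these 6 genes are left out here. The other 10 microglial markers were detected in the members of every library, at 33742 CPM summed in hCD33m members and 33605 CPM in matched cells, with 30459 against 31132 CPM in hCD33M and 33733 against 35033 CPM in Control. Of the 41 other measured markers of 12 further cell types, 15, 31 and 32 were at 0 in members of hCD33m, hCD33M and Control, against 22, 32 and 28 in matched cells of these libraries. Their summed level was 585.0 CPM in hCD33m members and 573.1 CPM in matched cells, 653.7 and 668.5 CPM in hCD33M, and 513.6 and 553.4 CPM in Control. Most of it came from Ighm, Il7r, Cd79b, Pecam1, Mbp and Mag, which were found in matched cells too, for example 875 UMIs of Ighm in hCD33m members and 900 in matched cells, and 94 and 74 UMIs of Mbp. Among the low counts, erythroid markers had 19 UMIs in hCD33m members and 3 in matched cells, choroid plexus markers 9 and 2, and neutrophil markers 4 and 0. Their part in the results was not tested.

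The libraries held 5707 barcodes with 32572995 UMIs (hCD33m), 5100 with 28387611 (hCD33M) and 3482 with 21529542 (Control), and at most 10 barcodes were shared between any 2 libraries. Xist, the transcript of the inactive X chromosome, was found in hCD33m members (6934 UMIs) and in no hCD33M or Control member, matching the labelled sexes. Members had median depths of 5683.5 UMIs (hCD33m), 5421 UMIs (hCD33M) and 6281 UMIs (Control), against 5136, 5084 and 5434.5 over all microglia of these libraries, and a median mitochondrial share of 1.87%, 2.13% and 1.98%, against 1.77%, 2.07% and 1.86% in the same libraries.

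To ask which other genes set the members apart, each was paired with 1 microglial cell of its library that had 0 UMIs of both genes and nearly the same depth. Partners were found for 468 of 482 hCD33m, 24 of 24 hCD33M and 22 of 23 Control members, with summed depths of 3071639, 208052 and 206383 UMIs in the members of these libraries and 3042850, 206442 and 206009 UMIs in their partners. Few genes were called. Of 6634 genes with a mean of at least 20 CPM, none was called higher in members (0%) and 6 were called lower (0.0904%) by edgeR's quasi-likelihood test over the 3 pairs with library as a block (Benjamini-Hochberg adjusted p under 0.05). An unadjusted p under 0.05 was given to 82 genes on each side. DESeq2 called 0 genes higher and 0 lower. The log2 ratios of all tested genes had a median of 0.00 and an SD of 0.18, next to a median standard error of 0.18. The hCD33m library carried most of the UMIs, and without it 0 genes were called in either direction, with 92 and 109 at an unadjusted p under 0.05 on the higher and lower side.

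**Figure D3:**
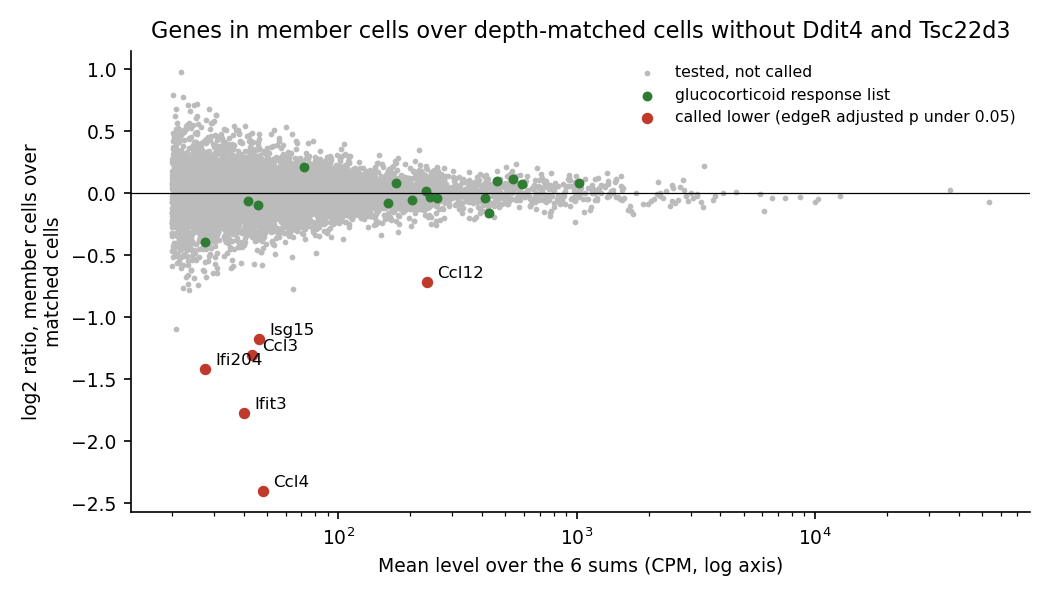
Log2 ratio of member cells over depth-matched cells without Ddit4 and Tsc22d3 (y axis) against the mean level over the 6 sums (x axis, CPM, log scale) for 6634 tested genes. The 6 called genes lie between -2.41 for Ccl4 and -0.72 for Ccl12, and the 16 tested genes of the glucocorticoid response list lie between -0.40 for Dusp1 and 0.21 for Sult1a1.

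The 6 genes called lower encode chemokines and interferon-induced proteins. Ccl4, a chemokine that attracts monocytes and T cells, had 26 UMIs in hCD33m members and 174 in their partners, 5 and 5 in hCD33M, and 7 and 29 in Control members and partners. Its log2 ratio was -2.41 ± 0.25 (SE, n = 3 pairs, edgeR adjusted p = 3.5e-17). DESeq2 gave a log2 ratio of -1.95 and did not call Ccl4. Ccl3, a chemokine of the same family, had 50 UMIs in hCD33m members and 106 in partners, 4 and 11 in hCD33M, and 5 and 23 in Control (log2 ratio -1.31 ± 0.27, edgeR adjusted p = 0.0018). Ccl12, a monocyte attractant, had 291 and 468, 39 and 43, and 50 and 108 UMIs in members and partners of hCD33m, hCD33M and Control (-0.72 ± 0.12, edgeR adjusted p = 2.3e-05). The 3 chemokines were lower in members in each library except for Ccl4 in hCD33M, where counts were equal.

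Among the interferon-induced genes, Ifit3, an antiviral protein, had 26 UMIs in hCD33m members and 60 in partners, 2 and 2 in hCD33M, and 2 and 38 in Control (log2 ratio -1.78 ± 0.31, edgeR adjusted p = 4.2e-05). It reached the limit of 20 CPM only through the Control partners, at 184.5 CPM against a mean of 11.4 CPM over the other 5 sums. Ifi204, of the DNA-sensing p200 family, had 37 and 84, 2 and 7, and 2 and 15 UMIs in members and partners of hCD33m, hCD33M and Control (-1.42 ± 0.30, edgeR adjusted p = 0.0029). Isg15, a ubiquitin-like modifier, had 57 and 101 UMIs in hCD33m and 4 and 38 in Control members and partners, but 4 and 1 in hCD33M (-1.18 ± 0.26, edgeR adjusted p = 0.0073). The directions of Isg15 thus differed between libraries. Ifi204 and Isg15 too reached 20 CPM only through the Control partners, with means of 18.6 and 19.0 CPM over the other sums, so the test of these 3 genes is not independent of the filter. Over the member sums alone Ccl3 had a mean of 19.9 CPM, under the limit, so its test is not fully independent of the filter either.

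These differences rested on few comparison cells. In the Control partners 1 cell held 36 of the 38 Ifit3 UMIs, 1 cell held 33 of the 38 Isg15 UMIs and 1 cell held 82 of the 108 Ccl12 UMIs. In the hCD33m partners 5 cells held 73.6% of the Ccl4 UMIs, up to 65 in 1 cell. The share of hCD33m cells with any Ccl3 UMI was 6.20% of members and 8.33% of partners, and with any Isg15 UMI 9.62% and 9.19%. No hCD33m member held 10 or more Ccl4 UMIs (0 of 482, which allows a share of up to 0.622%, taken as 3 counts of the total), against 13 of all 2320 hCD33m microglia with 0 UMIs of both genes (0.560%, 0.299 to 0.956). A difference in such cells was therefore not detectable at this number of cells. Against a second set of depth-matched partners that shared no cell with the first, a comparison added after seeing the data, Ccl4 and Ccl3 were called lower (log2 ratios -3.30 and -2.54) and the other 4 genes were not. When the deepest 5% of microglia were left out 0 genes were called, and without the Control library 2 remained, Ccl4 and Ccl12.

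Genes of the glucocorticoid response, a pathway known to induce both marker genes, gave no called gene between members and their partners, like nearly all genes tested. Of 32 listed genes 30 were measured and 16 reached 20 CPM, and 0 were called in either direction (7 above and 9 below 0, median log2 ratio -0.04, against 0.00 over all genes). Fkbp5, a chaperone of the glucocorticoid receptor, had 155 UMIs in hCD33m members and 168 in partners, 8 and 10 in hCD33M, and 10 and 7 in Control (log2 ratio -0.10 ± 0.18). Sgk1, a serum- and glucocorticoid-regulated kinase, had 1519 and 1695, 73 and 70, and 75 and 93 UMIs in members and partners of hCD33m, hCD33M and Control (-0.16 ± 0.10). Of the 14 measured genes that did not reach 20 CPM, Per1, a clock gene induced by glucocorticoids, had 53 UMIs in hCD33m members and 53 in partners, Irs2, an adaptor of insulin signalling, 74 and 57, and Bcl6, a transcriptional repressor, 34 and 32. Arl4d had 13 and 15, Mt2 6 and 14, Slc7a11 7 and 10, Dusp2 5 and 7, Klf9 6 and 6 and Ctla2b 2 and 8 UMIs in hCD33m members and partners. Anxa1, Cd163, Hif3a, Il1r2 and Zbtb16 had at most 3 UMIs in members of any library.

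The other 14 tested genes of that list lay between -0.40 and 0.21. The lowest was Dusp1, a phosphatase that switches off MAP kinases, with 137 and 175, 2 and 1, and 2 and 8 UMIs in members and partners of hCD33m, hCD33M and Control (-0.40 ± 0.18). Members had a limit on Fos, and partners did not. In hCD33m Dusp1 stood at 150.3 CPM in Fos-high cells without both genes, against 56.5 CPM in all cells without both genes. The Dusp1 ratio is thus not independent of the choice of cells. The highest was Sult1a1, a sulfotransferase, with 249 and 207, 17 and 15, and 12 and 14 UMIs in members and partners of hCD33m, hCD33M and Control (0.21 ± 0.16). Between them stood Nfkbia, the inhibitor of NF-kappaB (-0.08 ± 0.12), Errfi1 (-0.07 ± 0.23), Zfp36, a protein that destabilises mRNA (-0.06 ± 0.12), Tgfbr2 (-0.04 ± 0.10), Pik3r1 (-0.04 ± 0.11), Cebpd (-0.03 ± 0.12), Cebpb (0.02 ± 0.12), Glul, glutamine synthetase (0.07 ± 0.09), Mt1, a metallothionein (0.08 ± 0.12), Rhob (0.08 ± 0.08), Mertk, a receptor for apoptotic cells (0.10 ± 0.10), and Txnip, a thioredoxin inhibitor (0.12 ± 0.10). In hCD33m alone, the counting interval lay below 0 for 4 of the 16 genes and above 0 for 0, against 3.78% and 3.32% of all 6634 tested genes. Larger shares below 0 were found in other lists, among them heat shock genes (4 of 8) and integrated stress response genes (3 of 8), with 0 above. Ribosomal protein genes went the other way, with 1 of 54 below 0 and 12 above. A share of this size was thus not particular to the glucocorticoid list. Members and partners share a library, so these ratios do not compare libraries. In cells with 0 UMIs of both genes Sgk1 stood at 543.9, 374.9 and 403.4 CPM in hCD33m, hCD33M and Control. Dusp1 stood there at 56.5, 17.4 and 21.1 CPM and Per1 at 20.3, 8.01 and 8.01 CPM. Others of the list were lowest in hCD33m, among them Tgfbr2 (358.3, 393.8 and 377.1 CPM) and Mt1 (172.5, 189.8 and 191.0 CPM). These differences between libraries were not tested.

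**Figure D4:**
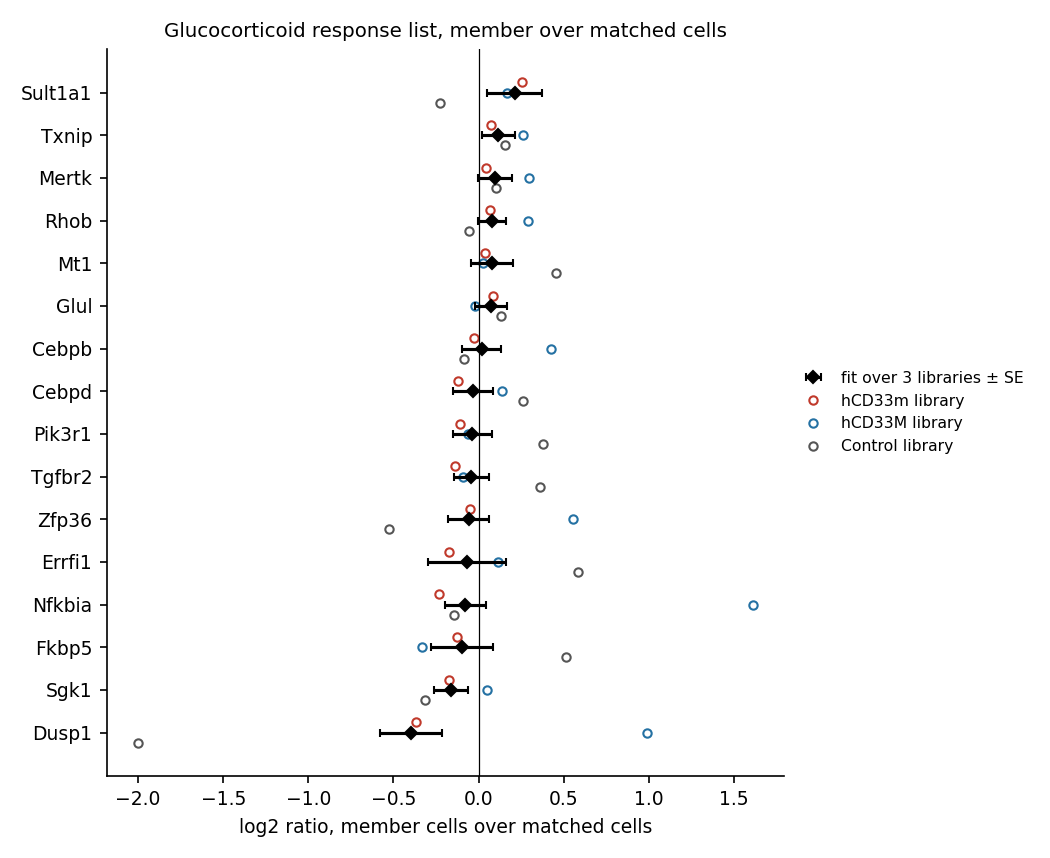
Log2 ratio of member cells over matched cells (x axis) for the 16 tested genes of the glucocorticoid response list (y axis); diamonds are the fit over 3 libraries with SE, and circles the hCD33m, hCD33M and Control libraries. The fitted values lie between -0.40 for Dusp1 and 0.21 for Sult1a1, and none was called.

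Regulators of mTOR, the kinase within the mTORC1 complex that Ddit4 restrains, gave no called gene either. Of 20 listed genes 8 were tested and 0 called, with a median log2 ratio of 0.05. Since 0% and 0.0904% of all genes were called higher and lower, counts of 0 in this and the following lists match the share over all genes. Tsc1, part of the complex through which Ddit4 acts, had 106 UMIs in hCD33m members and 94 in partners, 6 and 5 in hCD33M, and 10 and 1 in Control (0.34 ± 0.25). Rheb, the GTPase that activates mTORC1, was at -0.17 ± 0.13, Rictor at 0.18 ± 0.17 and Rragc, a nutrient-sensing GTPase, at -0.15 ± 0.14. Of the relatives of Tsc22d3, Tsc22d2 was at 0.15 ± 0.15 and Tsc22d4 at -0.01 ± 0.10.

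Other inducers of Ddit4 gave no called gene. Hypoxia genes had 0 of 11 called and a median log2 ratio of -0.13, with Pgk1, a glycolytic enzyme, at -0.30 ± 0.18 and Pfkfb4 at 0.23 ± 0.18. Integrated stress response genes had 0 of 8 called, with Atf4, their central factor, at -0.12 ± 0.13. Targets of p53 had 0 of 7 called, targets of FoxO 0 of 12, heat shock genes 0 of 8 and clock genes 0 of 6. All 13 mitochondrially encoded genes lay below 0 in the fit (median -0.10, against 0.00 over all genes) and 0 were called. In hCD33m alone their median was -0.05.

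Microglial identity genes gave no called gene. Of the 18 homeostatic genes other than P2ry12 and Tmem119, which the rule uses, 0 were called, and their median log2 ratio was -0.02. The lowest value was -0.07 ± 0.05 (SE), for Cst3, a protease inhibitor. Disease-associated microglia genes had 0 of 12 called, as few as over all genes. Apoe had 2563 UMIs in hCD33m members and 2170 in partners, 72 and 179 in hCD33M, and 207 and 65 in Control (0.20 ± 0.09), so its direction differed between libraries. Without the hCD33M library Apoe was called higher (0.58, edgeR adjusted p = 0.000221). It was also called higher with partners matched on genes (0.41) or not matched on depth (0.28). Against the second set of partners it was at -0.68, and with 3 partners per member at -0.16. With members chosen by Tsc22d3 alone it was at -0.08, and without the Control library at -0.07. None of the values below 0 was called.

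The early response genes that the study names for hCD33m microglia were not called higher in members than in their partners. The study compared genotypes, while members and partners share a library, so the 2 comparisons ask different questions. Fos and Fosb, which the study also names, chose the cells and are left out. None of 7 was called: Jun was at -0.04 ± 0.08, Egr1 at -0.25 ± 0.12, Btg1 at 0.02 ± 0.10, Btg2 at 0.03 ± 0.09, Klf2 at 0.48 ± 0.18, Rhob at 0.08 ± 0.08 and Zfp36l1 at 0.23 ± 0.10. Partners had no limit on Fos, and members did. Klf2, a transcription factor of quiescent myeloid and lymphoid cells, had 199 UMIs in hCD33m members and 181 in partners, 36 and 2 in hCD33M, and 10 and 6 in Control. Its ratio thus rested on the hCD33M library, where 36 UMIs lay in 9 of 24 members. Klf2 was called higher when partners were held to under 3 UMIs of Fos and Fosb as well (1.08, edgeR adjusted p = 0.040) and when members were chosen by Tsc22d3 alone (1.15, edgeR adjusted p = 0.023). It was not called without the hCD33M library (0.16).

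Within hCD33m, levels of Fkbp5 and Sgk1 showed no steady order over the counts that chose the cells. From 0 to 5 or more UMIs of Ddit4 and Tsc22d3 in cells with low Fos, Fkbp5 had 52.9, 56.7, 58.7, 58.1, 37.6 and 56.0 CPM, and Sgk1 526.9, 514.0, 475.0, 517.1, 443.8 and 520.1 CPM. Klf2 had 43.3, 46.5, 49.1, 47.8, 76.5 and 86.3 CPM over the same 6 classes and Klf4 28.3, 21.9, 24.2, 19.4, 27.6 and 64.1 CPM. The 2 Krueppel-like factors were thus highest in the 108 hCD33m cells with 5 or more UMIs, a class that no hCD33M or Control cell reached and that was not tested. Further genes, Egr1 and Jun among them, were counted over these classes and are not given here. Over all members Klf4 was not higher than in partners, whose Fos was not limited (log2 ratio -0.51, not called). It was the lowest of 13 tested genes in a list of other early response genes, of which 10 lay below 0 and 0 were called.

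A second comparison set the members beside another group, microglia with at least 3 UMIs of Fos and Fosb and 0 UMIs of Ddit4 and Tsc22d3. These cells were chosen by high Fos and the members by low Fos, so this contrast is not independent of the choice for genes that go with Fos. Partners were found for 338 hCD33m, 23 hCD33M and 21 Control members. Of 6581 genes none was called higher (0%) and 12 were called lower (0.182%) by edgeR, with 89 and 99 genes at an unadjusted p under 0.05 on the higher and lower side. DESeq2 called 0 higher and 1 lower, Egr1. Without the hCD33m library 0 were called.

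Of the 12 genes, 8 were early response genes. Egr1, a zinc-finger factor, had 545 UMIs in hCD33m members and 1311 in Fos-high cells, 38 and 54 in hCD33M, and 45 and 98 in Control (log2 ratio -1.18 ± 0.12, edgeR adjusted p = 1.1e-05). Dusp1 had 103 and 306, 2 and 6, and 2 and 11 UMIs in members and Fos-high cells of hCD33m, hCD33M and Control (-1.64 ± 0.18, edgeR adjusted p = 2.0e-05). Klf4 was at -1.98 ± 0.22, Ier2 at -1.29 ± 0.18, Zfp36 at -0.61 ± 0.13, Btg2 at -0.58 ± 0.09, Junb at -0.55 ± 0.10 and Jun at -0.49 ± 0.09. The hCD33m members had 1146 CPM of Jun, against 1842 CPM in Fos-high cells of that library.

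The remaining called genes were 3 chemokines and Tmx4, a thioredoxin-related membrane protein (-0.66 ± 0.13). Ccl2, the main monocyte attractant, had 16 UMIs in hCD33m members and 233 in Fos-high cells, but 1 and 0 in hCD33M and 3 and 2 in Control (-3.52 ± 0.38, edgeR adjusted p = 1.8e-05). In hCD33m 5 Fos-high cells held 84.1% of those Ccl2 UMIs. Ccl3 was at -2.72 ± 0.25 and Ccl4 at -3.11 ± 0.38. Ccl2 and Ccl4 reached 20 CPM only through the Fos-high cells of hCD33m, with means of 8.30 and 17.7 CPM over the other 5 sums. Over the member sums alone Ccl3 and Klf4 had means of 17.9 and 14.2 CPM, so they too passed the limit only with the Fos-high cells. The tests of these genes are thus not independent of the filter. Of the glucocorticoid list 2 of 16 tested genes were called lower, Dusp1 and Zfp36, both also early response genes, and 0 higher, with Fkbp5 at -0.03 ± 0.26 and Sgk1 at -0.30 ± 0.10.

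**Figure D5:**
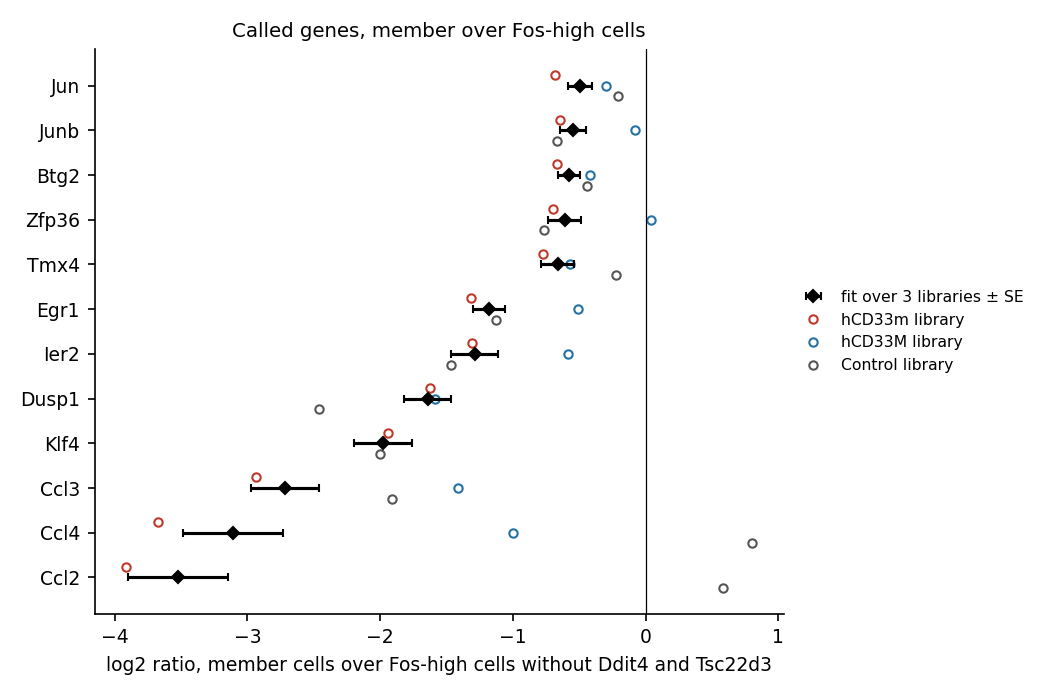
Log2 ratio of member cells over Fos-high cells without Ddit4 and Tsc22d3 (x axis) for the 12 called genes (y axis); diamonds are the fit over 3 libraries with SE, and circles the hCD33m, hCD33M and Control libraries. All fits lie below 0, between -3.52 for Ccl2 and -0.49 for Jun, while the Control circles of Ccl2 and Ccl4 lie above 0; libraries with 0 UMIs on 1 side are not drawn.

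Levels in members were also set side by side between libraries, with counting intervals and no test. Glul stood at 709.8 CPM in hCD33m members, 528.7 CPM in hCD33M members and 513.0 CPM in Control members, next to 676.6, 503.9 and 508.8 CPM in the cells of hCD33m, hCD33M and Control without both genes. Btg2 stood at 893.0, 499.9 and 647.5 CPM in hCD33m, hCD33M and Control members, next to 908.8, 597.2 and 635.0 CPM in cells without both genes. Rhob stood at 1296, 918.0 and 950.2 CPM in members and at 1257, 953.1 and 973.9 CPM in cells without both genes, in the same order of libraries. The higher hCD33m level of these genes was thus present in cells with and without Ddit4 and Tsc22d3.

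Cx3cr1, whose locus carries Cre in the transgenic mice, stood at 3218 CPM in hCD33m members, 3312 CPM in hCD33M members and 5802 CPM in Control members. Ddit4, Tsc22d3, Fos and Fosb, which chose the cells, are left out of the rankings between libraries that follow. Of genes that reached 100 CPM in either library of a pair, the highest ratios of hCD33m over Control members after Xist and Tsix, both at 0 in Control members, were Il7r (106.1 against 37.8 CPM, log2 ratio 1.49, 0.55 to 2.63) and B430010I23Rik (1.44, 0.54 to 2.51). Il7r was also higher in hCD33m cells without both genes (0.999, 0.87 to 1.13) and B430010I23Rik was not (0.01, -0.11 to 0.12). The lowest were Ifi27l2a, an interferon-induced gene (-1.67, -2.21 to -1.10), and Ccl12 (-1.34, -1.75 to -0.91). In cells without both genes Ifi27l2a had the opposite sign (0.85, 0.64 to 1.05), and after thinning to 4000 UMIs the members had it too (0.30).

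Over hCD33M members, hCD33m members were highest, after the same 2 transcripts, in Tardbp (log2 ratio 1.65, 0.60 to 2.98) and Rgs1, a regulator of G protein signalling (1.57, 0.78 to 2.49), and lowest, after the Y-linked Ddx3y, in Tnfsf13b, the B cell survival factor BAFF (-2.25, -2.89 to -1.58). Rgs1 was also higher in hCD33m cells without both genes (1.10, 0.9997 to 1.19) and Tnfsf13b lower (-1.10, -1.28 to -0.92), while Tardbp was not higher there (-0.03, -0.14 to 0.07). Between hCD33M and Control members, with 24 and 23 cells, Sorl1, a sorting receptor, had 22 and 3 UMIs (3.07, 1.33 to 5.45) and Cdc26 had 6 and 31 (-2.18, -3.73 to -0.89). In cells without both genes the ratios of hCD33M over Control were 0.29 (0.11 to 0.48) for Sorl1 and -0.07 (-0.18 to 0.03) for Cdc26. No test between libraries was made, and at this depth 120 and 83 of 2109 genes had counting intervals above and below 0 in that pair.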

How the data were processed

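Single-cell RNA was measured with the 10x Chromium 3' kit (v3.1) in 3 libraries, 1 per genotype. Per the methods, the authors aligned reads to mm10 with Cell Ranger and kept, in Seurat, barcodes with over 200 genes and genes in at least 3 cells. The deposited values are counts, the UMIs of each gene and barcode without normalization. Barcodes with over 200 and under 8000 genes and at most 10% mitochondrial UMIs were kept here: 5612 of 5707 (hCD33m), 5046 of 5100 (hCD33M) and 3412 of 3482 (Control), slightly more than the study states. Doublets were not called; the deepest 5% of microglia were left out in 1 alternative.

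Each member was paired, deepest first and without replacement, to the nearest unused comparison cell of its library within 0.1 in log2 total UMIs. Counts were summed per library and cell group and tested with edgeR 4.0.16 (TMM, quasi-likelihood, library as block, R 4.3.3), with DESeq2 1.42.0 as an alternative. Ddit4, Tsc22d3, Fos and Fosb were left out. Both sums of a pair come from 1 library, and nothing says whether the 3 libraries hold several animals. The edgeR p-values and SEs use a dispersion estimated with information shared over genes. They are therefore not a gene's own spread over the 3 libraries. The fits were tested on simulated data with 200 changed genes. The 6 genes that define microglia in the rule entered the fit and are not read as results. Shares carry exact (Clopper-Pearson) and ratios exact counting intervals at 95%, and shares of 0 a limit of 3 counts of the total. Promoters came from RefSeq, matched by symbol for both genes. Values were computed with numpy 2.4.6 and scipy 1.17.1 (Python 3.11.15), tables with pandas 2.3.3 and plots with matplotlib 3.10.9.

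The members, gene lists and tests were chosen with earlier results of these data known. Named genes were the 12 highest and 12 lowest called genes of the first comparison and the 8 highest and 8 lowest of the second that had the same direction in each library, every measured glucocorticoid gene, up to 4 of each other list, and the 6 highest and 6 lowest between libraries. Of the last 2 sets only some are printed. Markers, Jun over Fos-high cells, Isg15, Ccl2, Ccl4, Zfp36 (called, with unequal directions or a library at 0), Btg1, Cx3cr1, Glul, Btg2 and Rhob between libraries were named after their values were seen. The glucocorticoid genes set side by side between libraries in cells without both genes were also named after their values were seen.

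Alternatives were DESeq2, library totals, no filter and a mean of 50 CPM, no matching, matching on genes, a stricter cell filter (1000 genes, 5% mitochondrial), leaving out the deepest 5% of microglia, each library left out, 5 UMIs of Ddit4 and Tsc22d3, 3 partners per member, partners low in Fos, members by either gene alone, thinning to 4000 UMIs and no limit on Fos. A second matched set and lower limits for the choice by 1 gene were added after the data had been seen.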

Additional observations from a re-analysis of the deposited data

Results flagged for a closer look

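Ddit4 and Tsc22d3 were also high outside microglia in the hCD33m library. Of its border-associated macrophages 48.0% held at least 3 UMIs of both genes together (61 of 127, exact 95% interval 39.1 to 57.1), against 8.16% in hCD33M (8 of 98) and 6.17% in Control (5 of 81). After thinning to 4000 UMIs the share was 12.5% in hCD33m (14 of 112), and 0 of 90 in hCD33M and 0 of 71 in Control, which allow up to 3.33% and 4.23% when 3 counts of the total are taken as the limit. Of the kept cells that were neither microglia nor these macrophages, 9.55% passed the limit in hCD33m (17 of 178), 0.637% in hCD33M (1 of 157) and 1.71% in Control (2 of 117). These cells were not among the members.

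In 4 called genes at least 1 library went against the fit, and the difference between libraries was not tested. Isg15 was at 1.99 on the log2 scale in hCD33M members over matched cells, from 4 and 1 UMIs. Over Fos-high cells, Ccl2 was at 0.58 in Control, and in hCD33M it had 1 and 0 UMIs in members and Fos-high cells, so that it was lower in hCD33m alone. Ccl4 was at 0.80 in Control and Zfp36 at 0.041 in hCD33M.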

How the results depend on the processing

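Beside the 0 genes called higher and 6 called lower in members over matched cells, the numbers were 0 and 0 with DESeq2, 0 and 0 without the top 5% of cells by UMIs, 0 and 1 at a mean of 50 CPM, 5 and 4 without depth matching, 1 and 4 when matched on genes, 0 and 3 with 3 partners per member, 1 and 5 with partners low in Fos, 1 and 1 with members chosen by Tsc22d3 alone, and 0 and 2 with the second matched set. Leaving out each library in turn gave between 0 and 1 higher and between 0 and 7 lower. Ccl4 was called in each of these fits except those with DESeq2, at 50 CPM (where it was not tested), without the top 5% of cells and without the hCD33m library. The genes called higher in 1 or more alternatives included Klf2 and Apoe. For members over Fos-high cells, 0 and 12 in the report, the numbers were 0 and 1 with DESeq2, 2 and 16 without a filter, 0 and 8 at 50 CPM, 2 and 25 without matching, 2 and 12 without the top 5% of cells, and between 0 and 3 higher and between 0 and 16 lower when each library was left out. The cause of these changes was not tested, except that a filter at 50 CPM leaves fewer genes.

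The share of members was 5.98%, 0.216% and 0.338% in hCD33m, hCD33M and Control after thinning to 4000 UMIs, and 15.0% in hCD33m with no limit on Fos. Thinning left 242, 8 and 9 members in these libraries. For hCD33m over Control, 57 and 169 of 2351 genes then had intervals above and below 0 (110 and 182 of 1993 in full depth). For hCD33m over hCD33M the numbers were 56 and 145 of 2196 (87 and 234 of 2048). For hCD33M over Control they were 65 and 52 of 2500 (120 and 83 of 2109). The sets of genes thus differed between the depths. Ifi27l2a and Lrrc8d in hCD33m over Control (0.30 and 0.61) and Usp34 in hCD33M over Control (1.17) then changed sign. The limit of 5 UMIs and the choice by Ddit4 alone gave no test, since hCD33M then held 0 members and Control 0 or 1. No paired analysis was possible because each genotype has 1 library. This concerns genotypes only: members and their partners were compared within libraries throughout. The 24 hCD33M and 23 Control members held few UMIs of most genes, which limits the precision of their values.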
